A study of Mus musculus with 12 samples.

Results

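Uteri in which both copies of the Hoxa9 to Hoxa11 block were mutant were compared, gene by gene, with uteri that kept at least 1 intact copy. The comparison used 5 uterus libraries of the 12 in the series. The Hoxa-null pair held the genotypes Hoxa9,10,11-/- (called Hoxa-null) and Hoxa9,10,11-/-d9,10,11+/- (compound Hoxa-null, which also carries 1 mutant copy of the Hoxd9, Hoxd10 and Hoxd11 block). The Hoxa-intact libraries were WT, Hoxd9,10,11-/- (Hoxd-null) and Hoxa9,10,11+/-d9,10,11-/- (compound Hoxd-null, which has 1 mutant and 1 intact Hoxa copy). Each library was made from RNA pooled from 3 mice of a mixed CD1/129 background aged 3 to 7 months, and the females were collected in diestrus. A gene was chosen as separating by its gap alone, when both Hoxa-null libraries lay at least 1 log2 unit (2-fold) above, or below, each of the 3 Hoxa-intact libraries. By this rule 413 of the 18697 genes whose values varied over the 5 uteri separated. There was 1 library per genotype, so no value has a replicate check and no test was made.

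Hox genes encode transcription factors laid out in 4 clusters in the mouse, and those of the Hox9 to Hox11 groups pattern the posterior trunk and the segments of the genital tract. Hoxa10 and Hoxa11 are known from mouse genetics as genes that the uterus needs to take on uterine rather than oviductal character and to receive an embryo. The mouse uterus is normally lined by a simple columnar epithelium with glands, set in a stroma that holds natural killer cells, while the vagina and outer cervix carry a stratified squamous epithelium. The labels do not say what kind of allele the mutations are, so a mutant transcript may still be made and counted.

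The deposited values are log2 values in which each gene has a median of 0 over the 6 female libraries, that is the 5 uteri and the WT oviduct. For a gene with no or few reads in some library the spacing of the values gave its level before that centring, in normalised reads, with a floor of 1 normalised read. Levels were readable for 2400 genes by a library at the floor and for 950 by the spacing of low counts, and are given in place of log2 values where they exist. Relative depth spanned 1.31-fold over the 5 uteri. The Hoxa-null and WT uterus were sequenced in lane 1 and the compound Hoxa-null, Hoxd-null and compound Hoxd-null uterus in lane 2 of the same run, so each lane held libraries of both kinds. Markers of the uterus and of other tissues were compared between the libraries. Centred values show differences between libraries and not expression levels, and the levels of Krt8 and Vim could not be read. Krt8 and Vim thus do not check the tissue label. Krt8, a keratin of simple epithelium, stood at 0.04 and 0.20 in the Hoxa-null pair (here and throughout Hoxa-null before compound Hoxa-null), against -0.04, -0.04 and 0.53 in WT, Hoxd-null and compound Hoxd-null, and the stromal marker Vim at -0.11 and 0.11, against -0.17, 0.32 and 0.15. Zp3, an oocyte gene, was at the floor in the 5 uteri to within 0.01 normalised reads. Ovgp1, an oviduct secretory gene, did not separate but was higher in both nulls, with a gap of 0.44, at 0.22 and 1.58 in the Hoxa-null pair, against -2.09, -2.30 and -0.22 in WT, Hoxd-null and compound Hoxd-null, and at 3.05 in the oviduct. Foxj1, the regulator of ciliated oviduct cells, ran the other way, at -0.73 and -0.50, against 0.83, 0.12 and -0.12, with 5.72 in the oviduct. Cyp11a1, a steroid synthesis gene of the ovary, stood at 3.82 in the compound Hoxd-null uterus. The part that oviduct or ovary tissue has in the results was not tested.

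The targeted genes were examined before any other. Hoxa11 (Gene ID 15396, chromosome 6, start 52192105, mm9) stood at -0.86 and -1.23 in the Hoxa-null pair, against 1.88, 1.92 and 0.86 in WT, Hoxd-null and compound Hoxd-null, and was lower by the rule. The compound Hoxd-null uterus, with 1 intact Hoxa copy, lay about 1 log2 unit under the WT and Hoxd-null uteri and 1.71 above the nearer Hoxa-null library. Hoxa10 stood at -0.67 and -0.02 in the Hoxa-null pair, against 0.39, 0.82 and 0.02, and Hoxa9 at -0.40 and 0.21, against -0.06, 0.06 and 0.10. Neither separated. The groups overlapped for Hoxa9, and for Hoxa10 the nearest libraries of the 2 sides stood at -0.02 and 0.02. The reads of Hoxa9 and Hoxa10 thus do not check the genotype labels, whereas those of Hoxa11 sort the libraries as labelled.

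Of the 18697 genes that varied, 194 (1.04%) were higher in both Hoxa-null uteri and 219 (1.17%) were lower. Most gaps were close to the limit, with a median of 1.47 on the higher and 1.41 on the lower side, while 30 higher and 45 lower genes had a gap of at least 2 log2 units. Over all genes that varied, the mean of the Hoxa-null pair minus the mean of the Hoxa-intact libraries had a median of -0.01. A minimum of 20 normalised reads in the highest library, applied where levels were readable, was met by 159 higher genes (0.971% of the 16383 genes that met it) and 178 lower genes (1.09%). The minimum set aside 35 higher and 41 lower genes. Levels could be read for 71 of the 194 higher and 85 of the 219 lower genes. The 15673 genes with unreadable levels passed by default. The minimum could thus change these shares little, and they do not show how separation depends on expression level. Genes at the limit itself are given with predicted transcripts, shared symbols and genes under the minimum set aside. Wnt2b, Clvs1, Muc16, Drp2 and Angpt4 were just inside on the higher side, with gaps of 1.0008 to 1.0083, and Arhgap32, Ces5, Dmkn, S100b and Mirg just outside, at 0.9986 to 0.9900. On the lower side Cd177, Scin, Wdr63, Ly6i and Clic6 were just inside, at 1.0083 to 1.0408, and Adh6a, Flywch2, Sorcs1, Pira1 and Aif1l just outside, at 0.9946 to 0.9719.

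**Figure D1:**
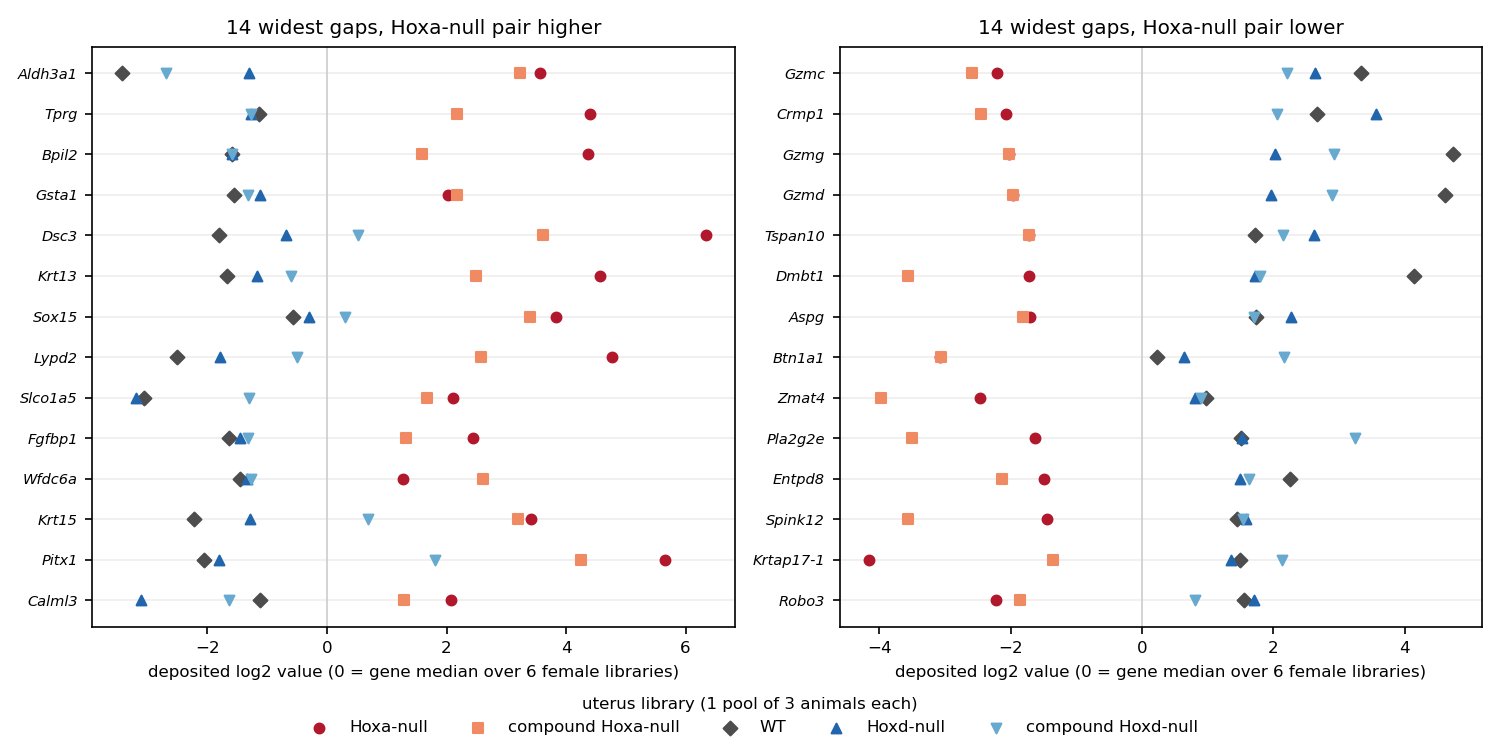
Deposited log2 values (x axis, 0 being the median of a gene over the 6 female libraries) of 14 genes per direction, those with the widest gaps between the Hoxa-null pair and the Hoxa-intact uteri once predicted transcripts and genes under the minimum were set aside, 1 symbol per uterus library. Every red or orange symbol lies at least 2.42 log2 units from the nearest grey or blue symbol of its gene.

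Among the fixed gene lists, keratins and regulators of stratified squamous epithelium held the largest shares of higher genes. The lists were chosen with earlier results of these data known, so their shares are descriptions and no support is drawn from them. Of 15 keratins of such epithelia that varied, 6 were higher (40%, beside 1.04% of all genes that varied) and 0 lower, and the other 9 did not separate. Krt13, of stratified mucosa, stood at 4.56 and 2.49 in the Hoxa-null pair, against -1.68, -1.17 and -0.60 in WT, Hoxd-null and compound Hoxd-null. Krt15, a basal-layer keratin, was at 3.41 and 3.20, against -2.23, -1.28 and 0.68. Krt5 (Gene ID 110308, chromosome 15, start 101537501, mm9) and its partner in basal-cell filaments, Krt14, were both higher. Krt5 stood at 5.60 and 3.84 in the Hoxa-null pair, against -1.71, -1.52 and 1.52 in WT, Hoxd-null and compound Hoxd-null. Krt14 stood at 5.76 and 3.00, against -1.23, -1.43 and 1.23. In both genes the Hoxa-null library was the highest and the compound Hoxd-null uterus the highest of the intact libraries, without reaching the nulls. The oviduct stood at -2.85 for Krt5 and -2.84 for Krt14, under each uterus.

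Keratins of stressed or proliferating squamous epithelium rested more on the Hoxa-null library. Krt6a was at 7.48 and 2.08 in the Hoxa-null pair, against -0.51, -2.23 and 0.51 in WT, Hoxd-null and compound Hoxd-null, and Krt16 at 7.03 and 2.24, against -0.53, -1.56 and 0.53. Krt6b did not separate, at 7.51 and 0.88, against -0.88, -2.73 and 1.01, because the compound Hoxa-null library lay under the compound Hoxd-null one. Krt1, of suprabasal epidermis, was at 54.0 and 5.01 normalised reads in the Hoxa-null pair, against 12.1, 5.99 and 6.40 in WT, Hoxd-null and compound Hoxd-null. Krt24 was read in the compound Hoxa-null uterus, at 17.0 normalised reads, and stood at the floor in the other 4. The median difference over the 15 keratins, Hoxa-null mean minus Hoxa-intact mean, was 2.05, beside -0.01 over all genes that varied, and it was 2.36 without the Hoxa-null library and 3.47 without the compound Hoxa-null library. Of 14 genes of simple epithelium 0 separated, with a median difference of -0.03. Over all genes that varied 1.04% were higher and 1.17% lower, so a count of 0 is near those shares. Krt18 stood at -0.17 and 0.20, against 0.16, -0.19 and 0.01, and Cdh1 at -0.22 and 0.01, against 0.06, -0.37 and 0.07.

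In the list of squamous regulators, 7 of 18 genes were higher (38.9%, beside 1.04% of all genes that varied) and 0 lower. This list too was chosen with earlier results of these data known. The 7 include Pitx1 and Trp73, which are also known from other tissues, and Sox21, which was under the minimum of 20 normalised reads. Trp63, which encodes p63, the factor that basal cells of stratified epithelia depend on, stood at 2.40 and 1.88 in the Hoxa-null pair, against -1.62, -1.85 and -0.34 in WT, Hoxd-null and compound Hoxd-null. Its relative Trp73 was at 23.6 and 28.9 normalised reads, against 1.10, 1 and 4.57, and at 1342 in the WT oviduct, where p73 is known from ciliated cells. Sox15, a Sox factor, had 21.2 and 15.6 normalised reads in the Hoxa-null pair, against 1, 1.20 and 1.83. Trp73 and Sox15 were near or at the floor in WT and read in both nulls, while the level of Trp63 could not be read. Pitx1, a homeodomain factor known from the hindlimb, had 210 and 80.1 normalised reads in the Hoxa-null pair, against 1, 1.20 and 14.6 in WT, Hoxd-null and compound Hoxd-null, and 1 in the oviduct. Trim29, a gene abundant in squamous epithelia, had 170 and 77.1, against 8.77, 2.40 and 22.4. The AP-2 alpha gene Tcfap2a stood at 3.52 and 2.03 on the log2 scale, against -0.03, -1.39 and 0.03. Sox21 was weak, at 2.84 and 5.01 normalised reads against the floor in the 3 intact uteri. Grhl3, a regulator of barrier formation, was high in the Hoxa-null library alone, at 171 normalised reads, while the compound Hoxa-null library was under the compound Hoxd-null one, and Sox2, Gata3 and Tcfap2c had lower means in the nulls and did not separate.

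Adhesion genes of stratified epithelium separated in part. Dsc3, a desmosomal cadherin of stratified epithelia, had 309 and 47.1 normalised reads in the Hoxa-null pair, against 1.10, 2.40 and 5.49 in WT, Hoxd-null and compound Hoxd-null, and 2.68 in the oviduct. Pkp1, a desmosomal plaque protein, stood at 3.87 and 1.11 on the log2 scale, against -2.72, -2.78 and -1.11, with 2.57 in the oviduct. Col17a1, the transmembrane collagen of hemidesmosomes, which fix basal cells to the basement membrane, was at 3.44 and 2.62, against -2.55, -0.98 and 0.98. These were 2 of 17 desmosome and junction genes (11.8%) and, with Krt5, 2 of 12 hemidesmosome and basement membrane genes (16.7%), beside 1.04% of all genes that varied. In either list 0 were lower. Dsg3 fell just short, with a gap of 0.95, and Dsg1a was read in the Hoxa-null library alone, at 56.6 normalised reads against the floor in the other 4. Desmosomal genes that simple epithelia also use stayed close together, with Dsp at 0.38 and -0.17, against -0.28, -0.77 and 0.17.

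The outer, cornified layers were represented less evenly. Of 34 cornified envelope and barrier genes, 4 were higher (11.8%, beside 1.04% of all genes that varied) and 1 was lower (2.94%, beside 1.17%). Lypd2, of the Ly6 family, stood at 4.78 and 2.57 in the Hoxa-null pair, against -2.51, -1.80 and -0.49 in WT, Hoxd-null and compound Hoxd-null, and Calml3, a calmodulin-like protein, at 2.08 and 1.29, against -1.13, -3.12 and -1.63. Spink5, which encodes a protease inhibitor of cornified epithelia, had 722 and 21.0 normalised reads, against 6.58, 3.59 and 8.23, so most of its signal came from the Hoxa-null library. The precursor of the cornified envelope Sprr2d was lower, at -0.87 and -1.84, against 0.87, 1.99 and 4.44. The median difference of this list was 0.90 and turned to -0.02 without the Hoxa-null library. Lypd3 and Sprr1a did not separate, at 5.06 and 1.09, against -1.92, -1.37 and 0.70, and at 3.55 and 0.60, against -1.29, -0.60 and 0.96.

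Krt5, Krt14 and Trp63 were also the 3 markers used for stratified squamous epithelium as another cell type that the tissue could hold. All 3 separated, but they were already counted in the lists above by the same values and are no further check. In those lists 9 of 15 keratins and 11 of 18 regulators did not separate. The levels of these markers could not be read, and the part that a different content of squamous cells has in the higher genes was not tested. In RNA from whole tissue, more or fewer cells of a type and more or less RNA per cell cannot be told apart, here and in the groups that follow.

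**Figure D2:**
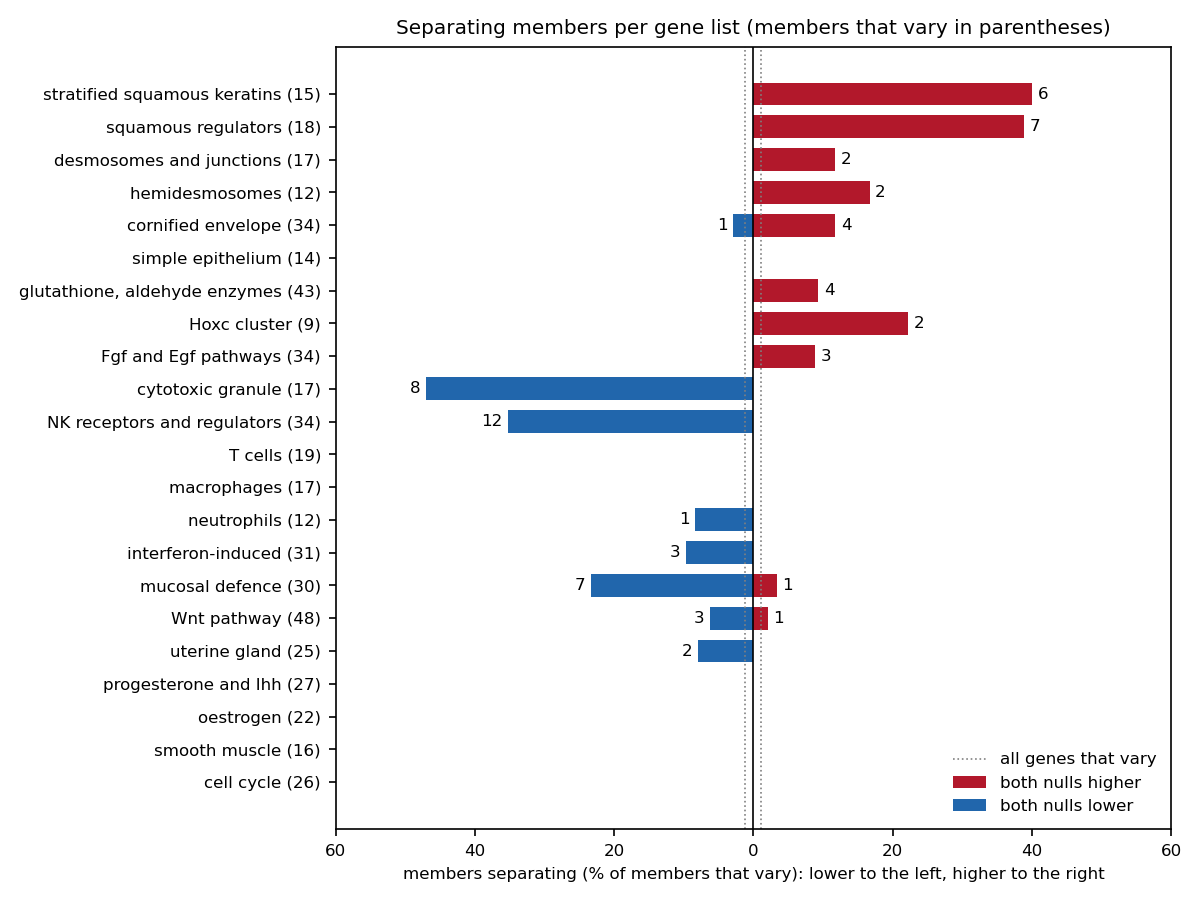
Share of the members of each gene list (y axis, members that vary in parentheses) that separated in the uterus, higher in both Hoxa-null libraries to the right and lower to the left, as a percentage with the number of genes beside each bar. Squamous keratins and regulators reach 6 of 15 and 7 of 18 on the higher side, cytotoxic granule and natural killer genes 8 of 17 and 12 of 34 on the lower side, and the dotted lines mark the 1.04% and 1.17% of all genes that vary.

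Enzymes that handle aldehydes, alcohols and glutathione had 4 of 43 members higher (9.30%, beside 1.04% of all genes that varied) and 0 lower. Aldh3a1 (Gene ID 11670, chromosome 11, start 61022244, mm9), an aldehyde dehydrogenase abundant in the cornea, had the widest gap of all, 4.54 log2 units. It had 141 and 112 normalised reads in the Hoxa-null pair, against 1.10, 4.79 and 1.83 in WT, Hoxd-null and compound Hoxd-null, with 29.4 in the oviduct. The lowest null was thus 23.3 times the highest intact library. Gsta1 and Gsta2, neighbouring glutathione S-transferase genes on chromosome 9 that are similar enough to share reads, stood at 2.03 and 2.18, against -1.55, -1.13 and -1.32, and at 1.32 and 2.40, against -1.06, -0.81 and -0.95. Adh7, an alcohol dehydrogenase of stratified epithelia that can oxidise retinol, was at 0.99 and 0.95, against -1.82, -1.51 and -0.95. The oviduct stood at 2.35 for Adh7, above both nulls. It stood at 1.13 and 0.81 for Gsta1 and Gsta2, between the nulls and the intact uteri. The nulls lay close together for Aldh3a1, Gsta1 and Adh7 and further apart for Gsta2, where the compound Hoxa-null library was the higher by 1.08 log2 units.

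Other genes with wide gaps belonged to none of these lists. Tprg, named after its regulation by p63, had 51.3 and 10.9 normalised reads in the Hoxa-null pair, against 1.10, 1 and 1 in WT, Hoxd-null and compound Hoxd-null. Duoxa1, the maturation factor of a hydrogen peroxide-producing oxidase, had 203 and 79.1, against 4.39, 4.79 and 16.5. The intact libraries were at or near the floor for Tprg, and compound Hoxd-null was the highest of them for Duoxa1, as for the basal keratins. The organic anion transporter gene Slco1a5 stood at 2.11 and 1.68 on the log2 scale, against -3.07, -3.20 and -1.31, with 1.31 in the oviduct. Upk1a, a urothelial plaque gene, was at 2.81 and 1.10, against -2.31, -1.85 and -1.10, with 3.31 in the oviduct, above both nulls. The other urothelial markers checked were scarce, with Upk2 between 8.23 and 16.1 normalised reads in the 5 uteri and Upk3a at most 3.00. Aqp3, a water and glycerol channel of basal cells, was at 3.12 and 2.68, against -2.47, -1.04 and 1.04.

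On the lower side, lists of cytotoxic lymphocyte genes had large shares, and these lists too were chosen with earlier results of these data known. Of 17 cytotoxic granule genes, 8 were lower (47.1%, beside 1.17% of all genes that varied) and 0 higher, with a median difference of -1.59. Of 34 natural killer receptor and regulator genes, 12 were lower (35.3%) and 0 higher, with a median difference of -1.20. Granzymes are serine proteases that such cells release into their targets, and the mouse genes Gzmc to Gzmg lie side by side on chromosome 14, with mm9 starts between 56736456 and 56850278. Gzmc (Gene ID 14940) had 1.31 and 1 normalised reads in the Hoxa-null pair, against 61.0, 37.4 and 27.7 in WT, Hoxd-null and compound Hoxd-null. Gzmd was at the floor in both nulls, against 96.5, 15.4 and 29.3, and Gzmg likewise, against 108, 16.6 and 30.9. Gzme was at the floor in both nulls too, against 52.7, 5.39 and 15.9, and Gzmf had 2.47 and 1, against 115, 8.67 and 31.0. WT was the highest library for each of the 5 genes, and the 5 stood at the floor in the oviduct. Genes of this family are similar and can share reads, and how reads were counted is not given in the sources used here.

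The stretches before the starts of these 5 genes were compared because the genes are neighbours and moved together. The 120 bases upstream are printed from RefSeq's GRCm38.p6 table, minus strand, at chr14:56234658-56234777 for Gzmc, chr14:56132594-56132713 for Gzmd, chr14:56120626-56120745 for Gzme, chr14:56211408-56211527 for Gzmf, chr14:56159580-56159699 for Gzmg. Capitals mark a run of 20 bases that the 5 share.
Gzmc: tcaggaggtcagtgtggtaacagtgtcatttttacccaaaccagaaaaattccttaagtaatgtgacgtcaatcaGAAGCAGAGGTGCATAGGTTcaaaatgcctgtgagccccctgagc
Gzmd: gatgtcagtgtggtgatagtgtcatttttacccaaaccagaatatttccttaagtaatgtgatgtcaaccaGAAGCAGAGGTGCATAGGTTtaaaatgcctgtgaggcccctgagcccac
Gzme: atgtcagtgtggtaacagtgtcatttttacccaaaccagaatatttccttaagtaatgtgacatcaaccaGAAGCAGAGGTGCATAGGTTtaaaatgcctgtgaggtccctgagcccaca
Gzmf: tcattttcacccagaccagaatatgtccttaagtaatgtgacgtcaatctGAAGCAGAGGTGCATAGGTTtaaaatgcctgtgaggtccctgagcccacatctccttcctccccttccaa
Gzmg: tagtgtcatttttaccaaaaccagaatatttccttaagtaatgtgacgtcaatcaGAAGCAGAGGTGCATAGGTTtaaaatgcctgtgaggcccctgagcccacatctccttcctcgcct
This run occurred in 5 of 27025 promoters of the table (0.0185%), those of Gzmc to Gzmg. In pairwise alignment over 250 bases the 5 promoters were 79.2% to 95.2% identical to each other and 56.4% to 60.8% identical to that of Gzmb. The match describes these letters and says nothing of which protein binds them.

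Other granzymes and granule genes were lower to a smaller extent. Gzma, on chromosome 13, had 10.4 and 16.0 normalised reads in the Hoxa-null pair, against 65.8, 59.8 and 36.5 in WT, Hoxd-null and compound Hoxd-null. Gzmb had 12.3 and 9.01, against 76.0, 39.5 and 15.5, and did not separate because the compound Hoxd-null uterus was within 2-fold of the nulls. Gzmk was weak in every library, between 1 and 13.2 normalised reads, and overlapped. The granule protease gene Ctsw stood at -0.72 and -0.81, against 0.80, 0.95 and 0.72, and the granule membrane gene Nkg7 was lower as well. The perforin gene Prf1, whose product opens the target membrane, was at -0.98 and -0.39, against 0.91, 0.39 and 0.94. It lay on the same side in each library, yet its gap of 0.77 was under the limit.

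**Figure D3:**
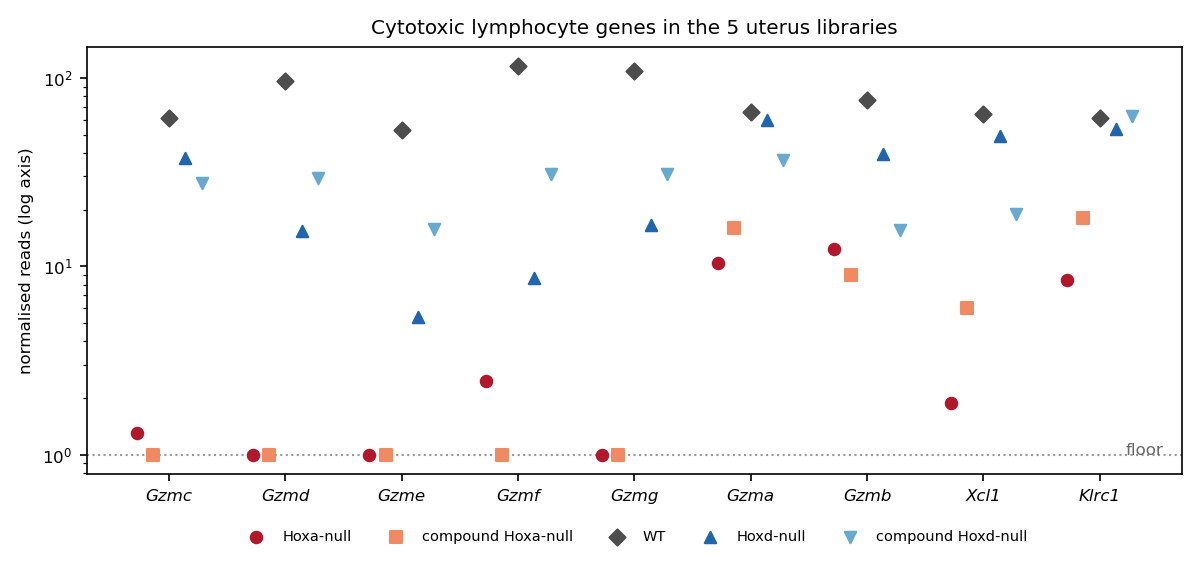
Normalised reads (log axis, floor of 1 dotted) of 7 granzyme genes, the chemokine gene Xcl1 and the receptor gene Klrc1 in the 5 uterus libraries, Hoxa-null and compound Hoxa-null at the left of each group. Both nulls are at or near the floor for Gzmc to Gzmg, where WT has between 52.7 and 115, while Gzmb of the compound Hoxd-null uterus, at 15.5, is close to the nulls.

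Receptors and regulators of natural killer cells followed. Ncr1, which encodes the activating receptor NKp46 and defines these cells in the mouse, stood at -0.88 and -1.06 in the Hoxa-null pair, against 0.88, 1.39 and 0.97 in WT, Hoxd-null and compound Hoxd-null. Il2rb, a receptor subunit for interleukins 2 and 15, was at -0.82 and -0.99, against 0.82, 0.96 and 0.98, and Eomes, a T-box factor of the lineage, at -0.57 and -1.05, against 0.57, 1.33 and 1.17. For these genes the 3 intact libraries differed little and the nulls were 2-fold or more under each. The lectin-like receptor genes Klrc1, Klrd1, Klre1 and Klri2, clustered on chromosome 6, were all lower, with Klrc1 at 8.51 and 18.0 normalised reads, against 61.4, 53.7 and 63.1. The chemokine gene Xcl1, which natural killer cells secrete, had 1.89 and 6.01, against 64.7, 49.1 and 18.9. Klrg1, Klra1, Klra4 and Cd7 were lower as well. The ligand Il15, on which uterine natural killer cells depend, did not separate, at -0.24 and -0.44, against 1.03, 1.04 and 0.10.

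Markers of other white cells were set beside these values. Of 19 T cell genes, 17 macrophage genes and 12 B and plasma cell genes, 0 separated in either direction, with median differences of -0.72, -0.65 and -0.16. In lists of this size 0 is near the shares over all genes that varied, 1.04% higher and 1.17% lower. Of 12 neutrophil genes, Mmp8 was lower (8.33%, beside 1.17%) but stayed under the minimum of normalised reads. The list's median difference was -1.17, with 12 of 12 members lower in mean in the nulls. Its median values were -0.29 and -0.01 in the Hoxa-null pair, against -0.25, 1.99 and 1.08 in WT, Hoxd-null and compound Hoxd-null. WT thus lay between the nulls. In the natural killer list each intact library lay above both nulls, at -0.83 and -0.62, against 0.46, 0.94 and 0.73. The neutrophil gene S100a8 had 23.6 and 14.02 normalised reads in the Hoxa-null pair, against 9.87, 220 and 127, so WT was the lowest there. The neutrophil list's median difference was -0.70 without the Hoxd-null library. Cd3e, which defines T cells, had 21.7 and 46.1 normalised reads in the Hoxa-null pair, against 14.3, 88.2 and 46.4 in WT, Hoxd-null and compound Hoxd-null. The macrophage gene Csf1r stood at -0.23 and 0.23, against -0.56, 0.85 and 0.94. In both cases WT was the lowest of the 5 uteri, unlike for the granzymes Gzmc to Gzmg. Of the 2 natural killer markers, Ncr1 separated and Prf1 did not, and the part of fewer such cells in the lower genes was not tested. T cells also express several genes of both lists, among them Gzma, Gzmb, Nkg7 and Ctsw.

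Genes of mucosal defence and secretion had 7 of 30 members lower (23.3%, beside 1.17% of all genes that varied) and 1 higher (3.33%, beside 1.04%). Dmbt1, which encodes a mucosal protein that binds bacteria, stood at -1.72 and -3.56 in the Hoxa-null pair, against 4.14, 1.72 and 1.80 in WT, Hoxd-null and compound Hoxd-null. Pigr, which carries polymeric antibody across epithelium, was at -0.63 and -0.58, against 1.31, 0.58 and 1.56, and the chitinase-like gene Chi3l1 at -1.20 and -3.47, against 1.20, 1.84 and 2.12. The acute-phase genes Saa3 and Saa1, Cfi and Chi3l4 were lower too. Saa3 stood at -3.15 and -1.41, against 0.79, 0.78 and 1.83. The higher member was Bpil2, of the lipopolysaccharide-binding protein family, at 62.2 and 9.01 normalised reads against the floor in the 3 intact uteri and 57.1 in the oviduct. Among 25 uterine gland genes, Dmbt1 and Pigr were lower (8%, beside 1.17%) and 0 higher. Foxa2, the gland regulator, overlapped, at -0.28 and -0.81, against 1.24, 0.28 and -2.24, with the compound Hoxd-null uterus the lowest of the 5, and the median difference of this list, -0.61, was 0.05 without the WT library.

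Interferon-induced genes had 3 of 31 members lower (9.68%, beside 1.17% of all genes that varied), Oas3, Oasl1 and Zbp1, and 0 higher. The whole list had a median difference of -0.92, and 29 of its 31 members had a lower mean in the nulls. Oas3 stood at -0.82 and -0.86 in the Hoxa-null pair, against 0.82, 0.82 and 2.47 in WT, Hoxd-null and compound Hoxd-null, and the compound Hoxd-null uterus was the highest for this gene and for Oasl1, at -0.71 and -0.58, against 0.65, 0.58 and 2.15. In the progesterone and Ihh list, 0 of 27 genes separated, in the oestrogen list 0 of 22, among smooth muscle genes 0 of 16 and among cell cycle genes 0 of 26. Counts of 0 here are near the shares over all genes that varied, 1.04% higher and 1.17% lower. The median differences of these lists were -0.13, 0.10, 0.52 and -0.51, and leaving out 1 library changed the sign of all but that of smooth muscle. In the cell cycle list 25 of 26 genes had a lower mean in the nulls, and the list's median values in the pair were 0.10 and -0.77, and the list's median difference was 0.00134 without the compound Hoxa-null library.

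Among signalling genes, a few members of each pathway separated. Of 48 Wnt pathway genes, 3 were lower (6.25%, beside 1.17% of all genes that varied). A single one was higher (2.08%, beside 1.04%), which is near the share over all genes. Lef1, a nuclear partner of beta-catenin, stood at -0.65 and -0.63 in the Hoxa-null pair, against 2.001, 1.64 and 0.63 in WT, Hoxd-null and compound Hoxd-null. The ligand Wnt2 had 20.8 and 19.0 normalised reads, against 45.7, 53.9 and 76.3, and the secreted inhibitor Wif1 stood at -0.68 and -2.87, against 0.79, 1.67 and 0.68. Wnt2b, another ligand, was higher, at 0.50 and 1.60, against -1.64, -1.54 and -0.50. Its gap was the smallest on the higher side once predicted transcripts, shared symbols and genes under the minimum were set aside. Sp5, a transcription factor gene known as a direct Wnt target, was in none of the lists and was lower, at -1.88 and -1.49, against 1.65, 1.05 and 1.04. Axin2, the usual readout of the pathway, did not separate, at -0.13 and -0.72, against 0.34, 0.13 and 0.78, and neither did the uterine epithelial ligand Wnt7a, at 0.33 and -0.27, against -0.14, 0.14 and 0.86.

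Fibroblast growth factor and epidermal growth factor genes had 3 of 34 members higher (8.82%, beside 1.04% of all genes that varied) and 0 lower. Fgfbp1, which releases bound fibroblast growth factors from the matrix, stood at 2.45 and 1.32 in the Hoxa-null pair, against -1.63, -1.46 and -1.32 in WT, Hoxd-null and compound Hoxd-null. It was at 2.97 in the oviduct, above both nulls. Fgf16 was at 1.32 and 0.78, against -0.73, -0.51 and -1.26. Fgf10, a mesenchymal ligand that acts on epithelium, was at 1.57 and 1.33, against -0.09, -0.62 and -0.87, with 0.09 in the oviduct. Its receptor gene Fgfr2 overlapped, at -0.03 and 1.02, against 0.03, -0.60 and -0.29. Of 24 retinoid pathway genes, the binding proteins Crabp2 and Rbp2 were higher (8.33%, beside 1.04%). The retinol transporter gene Stra6 was lower (4.17%, beside 1.17%). Crabp2 stood at 2.02 and 1.52, against -1.28, -0.33 and -0.20, and Stra6 at -1.92 and -0.78, against 0.84, 0.78 and 1.08. Among 37 BMP and TGF-beta genes, the antagonist gene Chrdl1 was higher, at 0.60 and 2.50, against -0.60, -0.61 and -1.36. This is 2.70% of the list, near the 1.04% over all genes.

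Hox genes outside the mutated block separated in part. Hoxa4 missed the limit with a gap of 0.99, at 21.7 and 27.3 normalised reads in the Hoxa-null pair, against 5.48, 9.58 and 11.0 in WT, Hoxd-null and compound Hoxd-null, and Hoxa6 had a gap of 0.78, at 0.39 and 0.99, against -2.07, -2.90 and -0.39. On the other side of the block Hoxa13 was higher, at 17.1 and 8.01 normalised reads, against 2.19, 1 and 2.74. It stayed under the minimum of 20 normalised reads. Of 9 Hoxc genes, Hoxc8 and Hoxc6 were higher (22.2%, beside 1.04% of all genes that varied). Hoxc8 stood at 0.61 and 1.30, against -2.01, -2.66 and -0.61, and Hoxc6 at 0.51 and 0.85, against -1.05, -1.31 and -0.51. Hoxc9 did not separate, at 0.54 and 1.36, against -3.62, -1.94 and -0.26. None of 9 Hoxb genes and none of Hoxd9, Hoxd10 and Hoxd11 separated.

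Separating genes often had neighbours that separated in the same direction. Of the 194 higher genes, 30 had another higher gene starting within 100 kb (15.5%, beside 2.97% of all genes that varied), and of the 219 lower genes 36 did (16.4%, beside 3.86%). The longest run was made of 7 keratin genes on chromosome 11, with mm9 starts from 99884948 to 100124196, Krt33b, Krt36, Krt13, Krt15, Krt14, Krt16 and Krt42. Of these, Krt33b and Krt42 were weak, at 4.89 and 3.59 and at 15.5 and 2.90 normalised reads in the Hoxa-null pair, against the floor in the 3 intact uteri. On chromosome 15 Krt6a and Krt5 stood next to 2 predicted genes that were also higher. The lower runs of more than 2 genes were those of the granzymes, of the lectin-like receptors and of Pcdha10, Pcdha11 and Pcdha12 on chromosome 18, and pairs included Saa3 with Saa1 and Mmp10 with Mmp8. Members of such tandem families can share reads, so their calls are not independent.

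Promoter letters were searched in RefSeq's GRCm38.p6 table, 250 bases before the start, on both strands. An entry was found for 128 of the higher and 149 of the lower genes. TTTATGG, a motif known from posterior Hox proteins, was in 4 of the higher (3.13%) and 5 of the lower promoters (3.36%), beside 2.45% of all 27025. TGAGTCA, the AP-1 motif, was in 8.59% and 6.71%, beside 4.43%, and TATAAA in 18.8% and 15.4%, beside 13.0%. Gzmd and Gzme were among the 5 lower genes with TTTATGG. These shares rest on few promoters and are descriptions.

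The libraries within each side were then compared as a description, with no support drawn from it, since the rule used the same values and bounds each intact library against the nulls. Among the higher genes, the compound Hoxd-null uterus was the intact library nearest to the nulls for 90 of 194 (46.4%), WT for 63 and Hoxd-null for 41, while over all genes that varied compound Hoxd-null was the highest of the 3 for 32.9%. It lay at least 1 log2 unit above the Hoxd-null uterus for 52 of the 194 higher genes (26.8%, beside 6.12% of all genes that varied) and at least 1 under it for 8 (4.12%, beside 5.5%). Krt5, Krt14, Pitx1 and Col17a1 were of this kind. Among the lower genes the corresponding shares were 14.2% above and 11.0% under, and compound Hoxd-null was the nearest library for 70 of 219 (32.0%, beside 30.9%). Separating genes vary more than most genes, so the shares over all genes are no match for them. The animals, and not the copy number alone, differ between these pools, and which of them the values follow cannot be told apart. Within the nulls, compound Hoxa-null minus Hoxa-null had a median of -0.06 over the higher genes and 0.00 over the lower genes, and 137 of 194 and 169 of 219 were within 1 log2 unit. It was 1 or more for 23 higher genes (11.9%) and 30 lower genes (13.7%), beside 8.24% of all genes that varied, and -1 or less for 34 (17.5%) and 20 (9.13%), beside 5.59%. At the extreme, Krt6a was 5.40 lower in the compound Hoxa-null than in the Hoxa-null uterus.

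**Figure D4:**
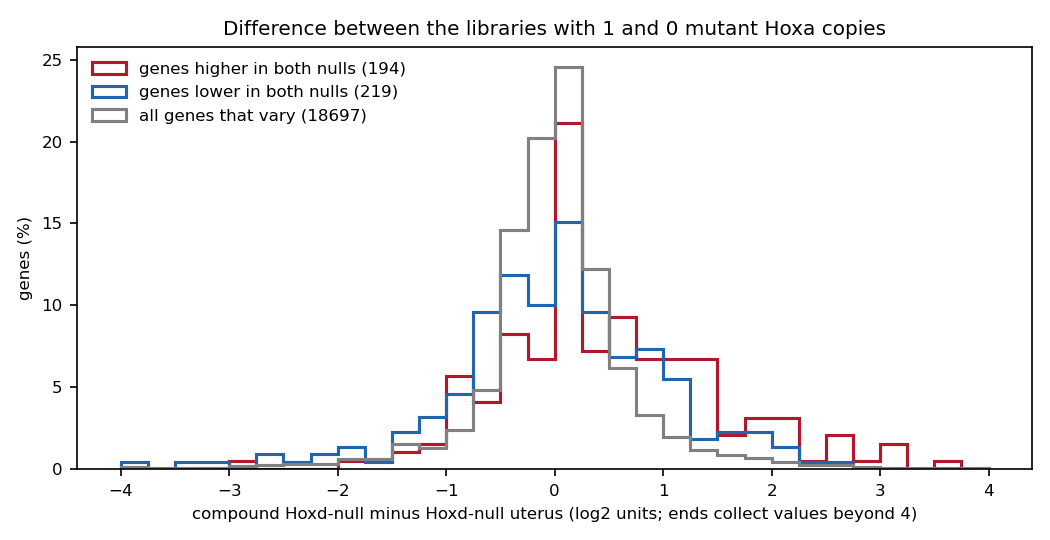
Distribution of the difference compound Hoxd-null minus Hoxd-null uterus (x axis, log2 units, bins of 0.25) over the 194 higher genes, the 219 lower genes and all 18697 genes that vary, as a percentage of each. The higher genes have a tail to the right, with 26.8% at 1 or more, where the lower genes have 14.2% and all genes 6.12%.

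The same 5 genotypes of vas deferens, which share no library with the uteri, were used to ask how far the uterine genes followed the Hoxa copies in the male duct. The WT vas deferens was in lane 1 and the Hoxa-null, compound Hoxa-null and Hoxd-null ones in lane 2 of the run that held the uteri, while compound Hoxd-null was in another run, and the part of this was not tested. There the rule called 785 genes higher (4.12% of 19071 that varied) and 450 lower (2.36%). Of the 194 genes higher in the uterus, 184 (1.03% of the 17949 genes that varied in both tissues) varied in the vas deferens, where 16 were higher too (8.70%, beside 3.23% of all those genes), 11 were lower (5.98%, beside 2.37%) and 157 did neither. The 16 were 2.76% of the 579 genes higher in the vas deferens. Of the 219 genes lower in the uterus, 201 varied in both tissues (1.12%), of which 18 were lower too (8.96%, beside 2.37%), 17 were higher (8.46%, beside 3.23%) and 166 did neither. The 18 were 4.24% of the 425 genes lower there. The median vas deferens difference was 0.19 over the uterus-higher and -0.04 over the uterus-lower genes, beside 0.01 over all. Most uterine separations were thus not seen in the vas deferens, and both directions were met more often than over all genes. As above, separating genes vary more than most genes, so the shares over all genes are no match for them.

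Of the genes shared in direction, Slco1a5 stood in the vas deferens at 1.08 and 1.42 in the Hoxa-null pair, against -2.60, -1.44 and -1.08 in WT, Hoxd-null and compound Hoxd-null. Fgfbp1 was at 2.12 and 1.54, against -0.14, -0.33 and 0.14, and the receptor tyrosine kinase gene Ret at 0.86 and 1.86, against -0.21, -0.70 and -0.27. With predicted transcripts set aside, Atp2c2, Cbs, Krt33b, Unc5cl, Myh8, Chst10 and Dlk2 completed the 10 widest on the higher side, of which Krt33b was under the minimum of 20 normalised reads in both tissues. On the lower side Wif1 was at -3.97 and -7.17, against 1.41, 1.67 and 0.43, the co-stimulatory receptor gene Tnfrsf9 at -0.97 and -2.17, against 1.91, 0.97 and 1.34, and the neuropeptide gene Grp at -2.09 and -2.34, against 1.35, 0.95 and -0.51. Hoxa11 itself was lower in both tissues, at -1.12 and -2.03 in the vas deferens, against 1.17, 1.01 and 0.34. Kcnj4, Vwa5b2, Tnf, Trhde, Art2a-ps and Gpr55 completed the 10 widest of the 18 on the lower side, of which Gpr55 was under the minimum in both tissues and Kcnj4 and Tnf in the vas deferens. Few squamous genes separated in the vas deferens. Of 14 squamous keratins 1 was higher and 0 lower, and of 17 squamous regulators 0 were higher and 1 lower. Of all genes that varied in both tissues, 3.23% were higher there and 2.37% lower. The median vas deferens difference was 0.63 over the keratins and -0.05 over the regulators, beside 0.01 over all. Krt5 stood at 0.18 and 0.53, against -0.14, -0.13 and 0.01, and so was higher in both nulls, with a gap of 0.17.

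**Figure D5:**
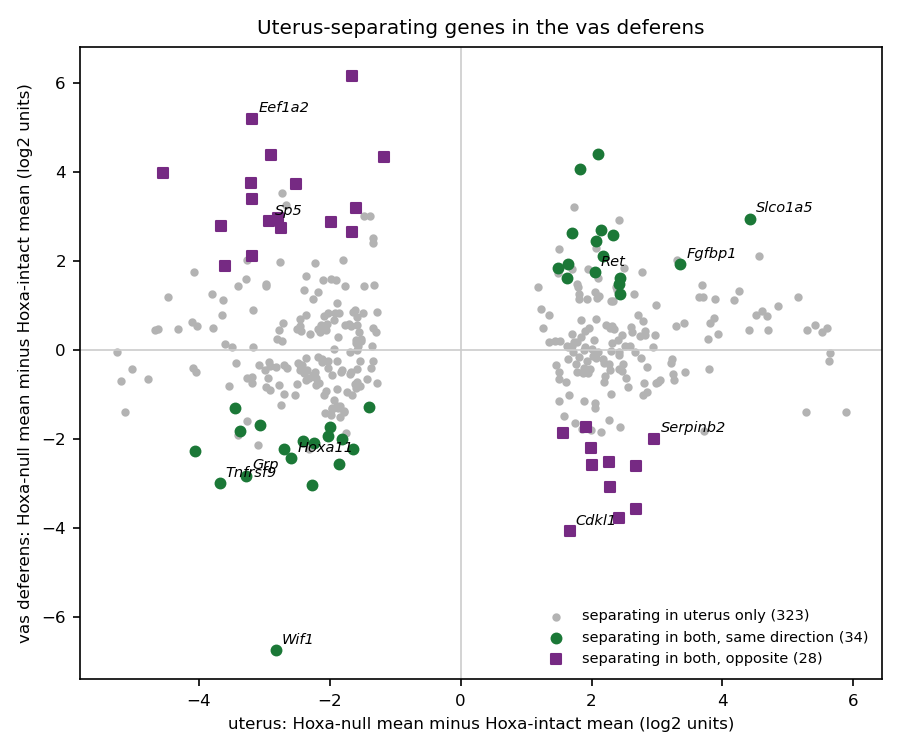
Hoxa-null mean minus Hoxa-intact mean in the vas deferens (y axis, log2 units) against the same difference in the uterus (x axis) for the 184 higher and 201 lower genes of the uterus that vary in both tissues. Green circles mark the 34 genes that separate in the same direction in both, purple squares the 28 that separate in opposite directions, and grey points the 157 higher and 166 lower genes that did not separate in the vas deferens, which spread around 0.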

How the data were processed

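RNA from fresh tissue was extracted with Qiagen RNeasy Mini columns and made into Illumina TruSeq libraries, per the labels' protocols. Reads were aligned with TopHat to mm9, per the submitters' processing notes. Which tool counted the reads, on which annotation and how values were normalised is not given in the sources used here. The deposited log2 values have, as the authors left them, a median of 0 per gene over the 6 libraries of a sex. Of 31618 genes, 12921 were constant over the 5 uteri and left out. Levels before centring were recovered from floor values and from the spacing of low counts. Of 3611 values between the floor and 5 reads, 69.5% were whole reads to within 0.005. A level read from the spacing alone could be too low by a whole-number factor. Total depth is unknown, so no counting interval is given. The 15673 genes with unreadable levels passed the minimum of 20 normalised reads by default. Named genes are the 30 per direction with the widest gap, list members and pathway genes. Members and lists were chosen with earlier results of these data known. The scripts (Python 3.11.15, numpy 2.4.6, pandas 2.3.3, Biopython 1.88, matplotlib 3.10.9) were tested on simulated data. Alternatives were other gaps, a difference of means, read minimums, single lanes and leaving out each library. Some genes are not reported here.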

Additional observations from a re-analysis of the deposited data

Results flagged for a closer look

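Genes that separated in opposite directions in the uterus and the vas deferens were flagged. Of 184 genes higher in both Hoxa-null uteri that varied in both tissues, 11 were lower in both Hoxa-null vasa deferentia (5.98%, beside 2.37% of all such genes). Of 201 genes lower in the uterus, 17 were higher in the vas deferens (8.46%, beside 3.23%). The same direction was met by 16 and 18 genes. Separating genes vary more than most genes, so the shares over all genes are no match for them. The difference between the tissues was not tested. Of the genes with opposite directions, 6 were also among the 30 lower genes with the widest gaps in the uterus.

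Eef1a2, a translation elongation factor gene of muscle and neurons, was 5.20 log2 units higher in the vas deferens as Hoxa-null mean minus Hoxa-intact mean. It stood there at 3.79 and 3.16 in the Hoxa-null pair, against 1.65, -3.12 and -3.71 in WT, Hoxd-null and compound Hoxd-null. In the uterus the same difference was -3.18. The intact vasa deferentia were themselves far apart, with WT well above the other intact libraries.

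Sp5, a transcription factor gene known as a Wnt target, differed by 2.895 in the vas deferens and by -2.93 in the uterus. Its vas deferens values were 1.71 and 1.28 in the Hoxa-null pair, against -1.48, -1.42 and -1.28 in WT, Hoxd-null and compound Hoxd-null. The 3 intact libraries lay close together in both tissues. Aspg, an asparaginase gene, differed by 2.79 in the vas deferens and by -3.66 in the uterus. Atp12a, a proton and potassium pump gene, differed by 2.74 in the vas deferens and by -2.74 in the uterus. Tmprss6, a membrane serine protease gene, differed by 2.11 and -3.18, and Entpd8, which encodes an enzyme that splits extracellular nucleotides, by 1.89 and -3.60. In the vas deferens both were under the minimum of 20 normalised reads.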

How the results depend on the processing

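With a gap of 1.5-fold, 431 genes were higher and 454 lower in both Hoxa-null uteri, with a gap of 4-fold 30 and 45, and by a difference of means of at least 2-fold 1022 and 1053. Within lane 1 (1 null against WT) 1243 were higher and 1635 lower, and within lane 2 (1 null against 2 intact libraries) 1127 and 868. Leaving out 1 library gave 262 to 750 higher genes and 302 to 549 lower ones. Higher genes numbered 750 without Hoxa-null, 487 without compound Hoxa-null, 322 without WT and 355 without compound Hoxd-null, and lower genes 510, 549, 458 and 403. Fewer libraries have less to separate by construction, and the 194 and 219 genes were among those found each time. A minimum of 10 normalised reads left 171 and 195, and aligning the library medians left 194 and 219. The genes shared in direction with the vas deferens numbered 34, against 93 at a gap of 1.5-fold and 27 with the minimum, and leaving out 1 library of the vas deferens gave 39 to 61. Of the 52 higher genes at least 1 log2 unit higher in compound Hoxd-null than Hoxd-null, 49 met the minimum, an alternative chosen after seeing the data. Of 47 list medians 27 kept their sign whichever library was left out, among them the 7 of at least 1 either way. No paired analysis was possible because each genotype has 1 library. With 1 pool of 3 mice per genotype, differences between animals and between genotypes cannot be told apart.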

Other observations

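The genes of these paragraphs were chosen after their values were seen. Ret, the receptor tyrosine kinase that guides growth of the ureteric bud and of enteric neurons, and its ligand Gdnf separated in opposite directions in the uterus. Ret stood at 0.95 and 0.97 in the Hoxa-null pair, against -1.01, -1.30 and -0.95 in WT, Hoxd-null and compound Hoxd-null. Gdnf had 31.2 and 26.0 normalised reads in the Hoxa-null pair, against 69.1, 176 and 66.8 in WT, Hoxd-null and compound Hoxd-null. The co-receptor gene Gfra1 did not separate, at 79.4 and 17.0, against 26.3, 10.8 and 28.7.

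Of the Robo receptors, which sense Slit guidance proteins, Robo1, Robo2 and Robo3 were lower in both Hoxa-null uteri and Robo4, the endothelial member, did not separate. Robo2 stood at -0.92 and -1.38 in the Hoxa-null pair, against 2.45, 2.04 and 0.92 in WT, Hoxd-null and compound Hoxd-null, and Robo1 at -0.82 and -0.55, against 1.29, 0.55 and 1.16. Slit1, Slit2 and Slit3 did not separate. The maternally expressed RNA gene Meg3 and the neighbouring Rtl1 of the imprinted region on chromosome 12 were both higher, Rtl1 with at most 7.56 normalised reads and so under the minimum of 20, and Meg3 at 1.84 and 1.89, against -0.26, -0.52 and -0.88. Dlk1, in the same region, had 21.7 and 17.0 normalised reads, against 8.77, 7.19 and 3.66, so the nulls were higher but with a gap under the limit.

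Of 68 genes of the Mmp, Adam and Adamts families, 5 were lower in both Hoxa-null uteri (7.35%, beside 1.17% of all genes that varied) and 0 higher. Among them Mmp7, Mmp8, Mmp10 and Mmp11 were lower, Mmp8 under the minimum of 20 normalised reads, while Mmp2, Mmp3, Mmp9 and Mmp13 did not separate. Mmp10 stood at -1.55 and -1.30 in the Hoxa-null pair, against 0.48, 1.52 and 2.05 in WT, Hoxd-null and compound Hoxd-null.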
